A study of Mus musculus with 3 samples.

Results

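The genes described here are 10 genes of epithelial and mesenchymal adhesion, namely the cadherins Cdh1 and Cdh2, the adhesion protein gene Epcam, the tight junction gene Ocln, the intermediate filament gene Vim and the transcription factor genes Zeb1, Zeb2, Snai1, Snai2 and Twist1. They were chosen by name, as the rows of the deposited TPM matrix that carry these symbols. All 10 were found among 32545 rows, and all 10 had a mean TPM (a level per length of transcript and per total of the library) of at least 0.5, which 19950 genes did. The matrix holds RNA-seq values of mouse ESCs of the line E3, grown at passage 7 on feeder cells of mouse embryonic fibroblasts in medium with serum and LIF. The control cells carried the empty vector, and the lines KD4 and KD9 carried shRNAs against the Usp17l family of deubiquitinases. Each line is a single clone, selected with puromycin after transfection of 2 shRNAs against a region that the family shares, and the sources used here do not say which shRNA gave which clone. GEO's labels name 1 sample for the control and 1 for each line, while the matrix has 2 columns for each line, so the mean of both columns stands for each line as 1 sample. A second control column of the matrix, which could not be tied to the labelled control sample, was left out, so every fold against the control rests on 1 column by this choice. Legends in the paper call the replicates of this RNA-seq biological, which the labels do not state.

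In epithelia, E-cadherin, the product of Cdh1, joins neighbouring cells through catenins that bind actin, occludin from Ocln seals the tight junction, and EpCAM holds cells together at their sides. Snail, Slug, the ZEB proteins and Twist are transcription factors that can switch cells towards a mesenchymal state. Snail, Slug and the ZEB proteins bind E-box sequences and repress genes of epithelial adhesion, while N-cadherin from Cdh2 and vimentin from Vim are usual marks of the mesenchymal state. Mouse ESCs form compact colonies with E-cadherin at their contacts, and fibroblasts of a feeder layer express vimentin and several of these transcription factors.

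The promoter windows of 3 of these genes are shown, as the letters before the start of the epithelial genes Epcam and Ocln and of the repressor gene Snai1, 3 genes picked after their values were seen: Ocln and Snai1 had the only folds over 2, and Epcam the only positive log2 fold change in KD4. Each run holds the 250 bases before a start site of RefSeq on GRCm38.p6, 5′ to 3′ on the strand of the gene, with the E-box core CAGGTG, or CACCTG where it lies on the other strand, in capitals.
Epcam (chr17:87635729-87635978, plus strand): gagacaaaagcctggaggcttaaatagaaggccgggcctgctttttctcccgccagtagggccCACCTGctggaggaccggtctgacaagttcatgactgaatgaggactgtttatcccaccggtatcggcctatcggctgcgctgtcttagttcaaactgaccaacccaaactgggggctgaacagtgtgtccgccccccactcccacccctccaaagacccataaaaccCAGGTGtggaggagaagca
Ocln (chr13:100552719-100552968, minus strand): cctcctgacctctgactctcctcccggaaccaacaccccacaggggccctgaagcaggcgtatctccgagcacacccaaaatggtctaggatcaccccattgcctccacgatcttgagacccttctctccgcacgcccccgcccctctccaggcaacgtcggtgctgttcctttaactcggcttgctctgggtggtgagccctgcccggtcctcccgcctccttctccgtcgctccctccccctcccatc
Snai1 (chr2:167537945-167538194, plus strand): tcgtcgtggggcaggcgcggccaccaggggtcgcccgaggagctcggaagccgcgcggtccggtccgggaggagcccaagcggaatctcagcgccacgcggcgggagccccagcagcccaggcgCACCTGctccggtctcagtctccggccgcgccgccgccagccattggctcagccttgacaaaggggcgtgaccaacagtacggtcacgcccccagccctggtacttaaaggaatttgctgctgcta
The window of Epcam holds the core 187 and 19 bases before the start, counted to its first base, and that of Snai1 holds it 126 bases before. The window of Ocln shown holds none, while a second RefSeq start of Ocln has the core 213 and 68 bases before it. The windows of Vim, Zeb2 and Twist1 hold none. Of 32851 such windows of mouse genes, 17.2% hold the core, and of the 10 windows of these genes 3 do. A match is a run of letters and not a binding site, and no binding was measured here. Cdh1, Cdh2, Snai2 and Zeb1 have no window here.

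The labels and the libraries were checked first. Usp17le, one of the shRNA targets, had a TPM of 1.82 in the control, between 0.0637 and 0.151 in the columns of KD4 and between 0.331 and 0.374 in those of KD9. The other 4 family members were also lower in every knockdown column than in the control. Their levels were low throughout, from 0.343 to 1.12 in the control and at most 0.421 in the knockdown columns. Per the paper, the family shares stretches of identical sequence and only unique reads were counted. The 14 ESC markers summed to a TPM of 5630.3 in the control, 7708 to 7721 in KD4 and 5695 to 5699 in KD9. The 22 fibroblast markers summed to 6915 in the control, 2242 to 2259 in KD4 and 5205 to 5284 in KD9, so that the control was 3.07-fold above KD4 and 1.32-fold above KD9, with no fibroblast marker at 0. All 22 were lower than the control in KD4, and in KD9 6 of the 22 (Col3a1, Pdgfra, Lum, Dcn, Lox and Mmp2) were above it. Col1a1 was at 1198 in the control, 182 and 184 in KD4 and 767 and 759.8 in KD9, while Dcn was at 16.6 in the control, 2.47 and 2.21 in KD4 and 39.7 and 40.4 in KD9. The summed fibroblast markers thus differed between the samples, while single markers of the 22 went both ways in KD9. The amount of fibroblast RNA in each library was not measured, and its part in the values of the 10 genes was not tested. In such bulk samples, fewer cells of a type and less RNA per cell cannot be told apart.

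The 3 epithelial genes were expressed in every column. Cdh1 had a TPM of 159.8 in the control, 158 and 149.7 in the 2 columns of KD4 and 111 and 109 in those of KD9. KD4 thus lay just under the control, which was nearer to the first column of KD4 than the columns of KD4 were to each other. Both columns of KD9 lay below all others. KD4 had a log2 fold change of -0.05 and KD9 of -0.54, and over both lines it was -0.30 (standard error 0.31, limma, adjusted p = 0.9996). Fold changes are differences of log2(TPM + 0.1) against the control. The test takes the 2 lines as replicates and draws their spread towards that of genes of like level. It assigns this spread to the control, which has 1 sample.

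Epcam, which encodes a homophilic adhesion protein of epithelial and stem cells, was at 133 in the control, 166 and 182 in KD4 and 115 in both columns of KD9. It was the only one of the 10 genes with a positive log2 fold change in KD4, 0.39, while that in KD9 was -0.21. Its promoter window, shown above, holds the E-box core, as do 17.2% of the windows of mouse genes. The windows of Snai1 and of the second start of Ocln hold it too, and no binding was measured. Over both lines the change was 0.09 (standard error 0.34, limma, adjusted p = 0.9996).

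Ocln had the largest log2 fold change over both lines among the 10 genes, and a negative one. It was at 6.81 in the control, 3.56 and 3.36 in KD4 and 2.51 and 2.75 in KD9, so that all 4 knockdown columns lay well below the control and KD9 lay below KD4. KD4 had a log2 fold change of -0.96, just inside 2-fold, and KD9 one of -1.34, where the control was 2.59-fold higher. Over both lines it was -1.15 (standard error 0.37, limma, adjusted p = 0.898), at the percentile 5.4 of all tested genes. Ocln was also the gene of lowest level among the 10, at the percentile 40.7 of all tested genes in the control and 25.1 in KD9.

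**Figure D1:**
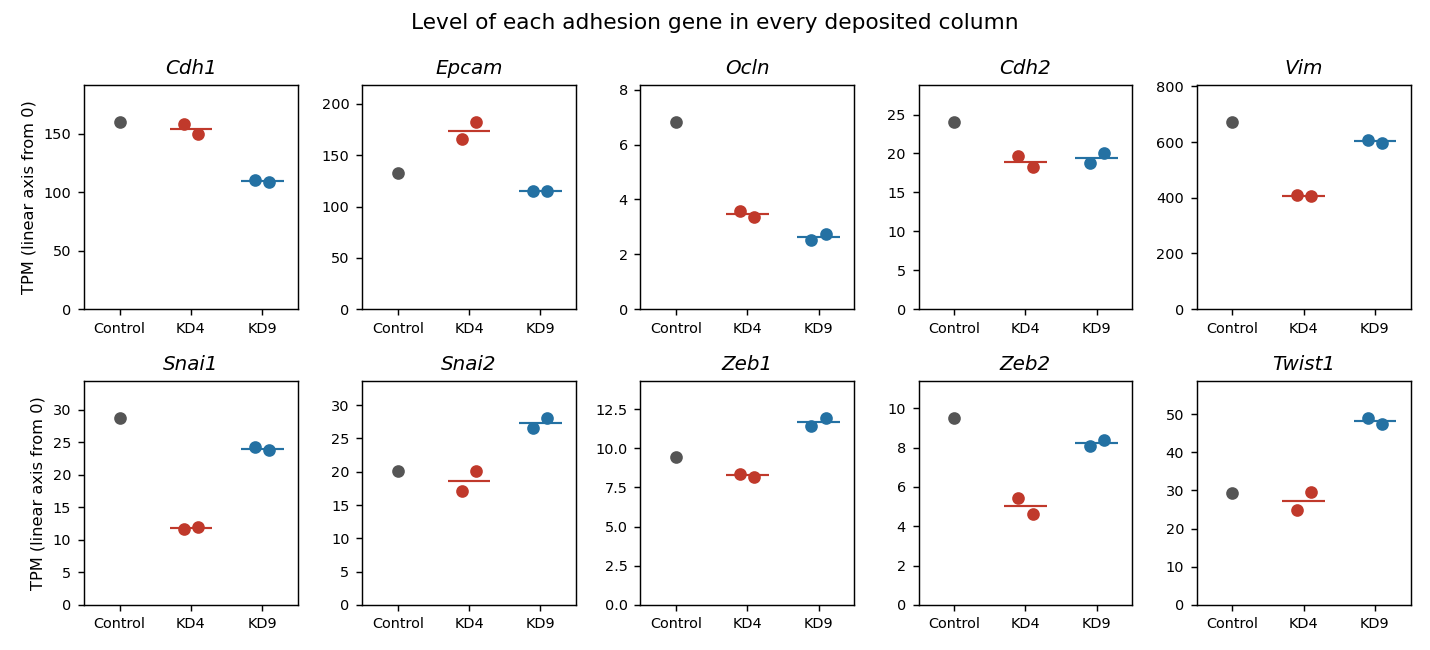
TPM of each of the 10 genes in the control column and in the 2 columns of KD4 and of KD9, on linear axes that start at 0, with 1 point per column and a bar at the mean of each line. Ocln is at 6.81 in the control and at 3.56 or less in all knockdown columns, Snai1 is near 12 in KD4 only, and Twist1 is above 47 in KD9 only.

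Of the mesenchymal marks, Cdh2 was at 24.0 in the control, 19.6 and 18.3 in KD4 and 18.8 and 20.0 in KD9. The columns of the lines overlapped each other and lay below the control. Its log2 fold changes of -0.34 and -0.31 were the closest pair among the 10 genes, with a difference between the lines of -0.03, and over both lines the change was -0.32 (standard error 0.25, limma, adjusted p = 0.9996). Cdh1 was well above Cdh2 in every library.

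Vim was the most abundant of the 10 genes, at the percentile 99.1 of all tested genes in the control. It was at 671 in the control, 409.7 and 406 in KD4 and 609 and 596 in KD9. KD4 was lowest, KD9 lay between, and no columns overlapped. KD4 had a log2 fold change of -0.72 and KD9 of -0.16, and over both lines it was -0.44 (standard error 0.35, limma, adjusted p = 0.9996). The control was 1.65-fold above KD4 for Vim, beside 3.07-fold for the summed fibroblast markers.

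The 5 transcription factor genes did not share 1 direction. Snai1, which encodes Snail, was at 28.7 in the control, 11.6 and 12.03 in KD4 and 24.2 and 23.9 in KD9. KD4 lay well below the other columns. It was the single gene of the 10 more than 2-fold lower in KD4, with a log2 fold change of -1.27, while that in KD9 was -0.26. Over both lines the change was -0.77 (standard error 0.50, limma, adjusted p = 0.9996).

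Snai2, which encodes the related repressor Slug, was at 20.1 in the control, 17.1 and 20.2 in KD4 and 26.6 and 28.1 in KD9. Both columns of KD9 were above the control, while those of KD4 lay on either side of it. KD4 had a log2 fold change of -0.11 and KD9 of 0.44. The Snail paralogs thus stood in a different order in the lines, with Snai1 above Snai2 in the control and Snai2 above Snai1 in KD4 and KD9.

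Zeb1 was at 9.48 in the control, 8.38 and 8.17 in KD4 and 11.4 and 11.9 in KD9, with log2 fold changes of -0.19 and 0.30. The control lay between the lines without overlap. Zeb2 was at 9.50 in the control, 5.42 and 4.63 in KD4 and 8.08 and 8.38 in KD9, with log2 fold changes of -0.91 and -0.20. The ZEB genes, whose products are paralogous zinc finger repressors, had nearly equal levels in the control, while in KD4 and in KD9 Zeb2 was below Zeb1 with no overlap of columns.

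Twist1, which encodes a basic helix-loop-helix factor, was at 29.3 in the control, 24.8 and 29.6 in KD4 and 49.0 and 47.4 in KD9. Both columns of KD9 lay above all others, and the columns of KD4 lay on either side of the control. KD4 had a log2 fold change of -0.11 and KD9 of 0.72, the largest positive value of the 10 genes in either line. Over both lines Snai2, Zeb1 and Twist1 had changes of 0.16, 0.05 and 0.31, Zeb2 had -0.56, and their adjusted p in limma was 0.9996.

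**Figure D2:**
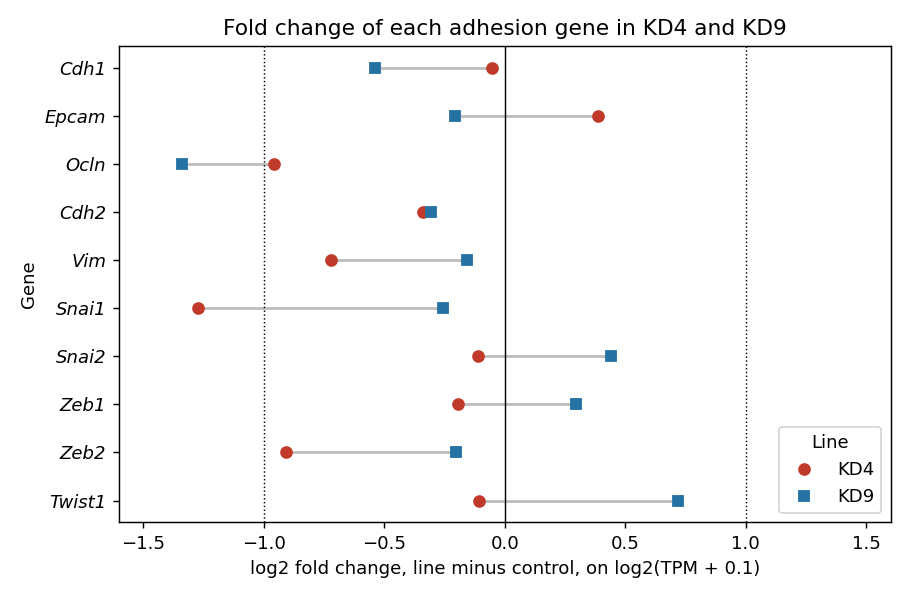
Log2 fold change of each gene on the scale of log2(TPM + 0.1), with a circle for KD4 and a square for KD9 minus the control, and dotted lines at a 2-fold change. Snai1 in KD4 (-1.27) and Ocln in KD9 (-1.34) lie past the lines, and Epcam, Snai2, Zeb1 and Twist1 have points on both sides of 0.

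Counted over the 10 genes, 1 was more than 2-fold lower in KD4, where 9.5% of all tested genes were, and none was more than 2-fold higher, where 5.18% were. In KD9 the counts were 1 lower beside 5.45% and none higher beside 4.21%. These shares are near the background. Over 1.5-fold, 4 of the 10 were lower in KD4 (Ocln, Vim, Zeb2 and Snai1) beside 18% of all tested genes and none was higher beside 11%, while in KD9 Ocln was lower beside 11.6% and Twist1 higher beside 8.89%. No member was past 3-fold in either direction, where 7.28% of all tested genes were in KD4 and 4.52% in KD9. The control column lay above all 4 knockdown columns for 6 of the 10 genes (Cdh1, Cdh2, Ocln, Vim, Zeb2 and Snai1), beside 30.1% of all tested genes, and below all 4 for none, beside 20.5%. By the mean of each line, the same 6 genes were lower than the control in both lines, beside 38.2% of all tested genes, and none was higher in both, beside 28.8%. The single control column used enters each of these comparisons. The 10 genes had medians of -0.27 (KD4) and -0.21 (KD9) on the log2 scale, and all tested genes -0.02 and -0.06.

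The columns of KD4 and KD9 were also set against each other. Columns that did not overlap between the lines were common among all tested genes, as the shares given here show. Both columns of KD4 lay below both columns of KD9 for Vim, Zeb1, Zeb2, Snai1, Snai2 and Twist1, which is 6 of the 10 beside 29.9% of all tested genes. They lay above those of KD9 for the epithelial genes Cdh1, Epcam and Ocln, 3 of the 10 beside 38.5%, and Cdh2 was the only gene whose columns overlapped between the lines. The largest difference between the lines among the 10 genes, KD4 minus KD9, was -1.02 on the log2 scale for Snai1. The columns within a line differed by at most 0.25 for any of the 10. No test of the difference was made, since each line is 1 labelled sample. KD4 was also the line of the lowest fibroblast markers. The fold over KD4 in the control was 3.07 for the fibroblast markers. Among the 10 genes it was 2.43 for Snai1, 1.97 for Ocln, 1.89 for Zeb2, 1.65 for Vim, 1.27 for Cdh2 and 1.15 for Zeb1. It was 1.08 for Snai2, 1.08 for Twist1, 1.04 for Cdh1 and 0.76 for Epcam. The part of the fibroblast RNA in these values was not tested.

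In limma 0% of the 19950 tested genes passed an adjusted p of 0.05, none of the 10 included. Without adjustment, 535 genes were lower and 506 higher at a p under 0.05 in limma, with Ocln as the single member. Together these are a share of the 19950 tested genes close to the threshold of 0.05 itself. The second control column was left out as said above, so a gene's own spread in this test comes from the 2 lines, with 1 residual degree of freedom. That spread is drawn towards the spread of genes of like level, with 3.01 prior degrees of freedom. The standard errors are thus not the spread between KD4 and KD9 of each gene. For Cdh2 the SD between the lines was 0.023 and the standard error 0.25. With each column as its own library and a term for each line, an alternative chosen after results were known, limma called Ocln (-1.15, standard error 0.13, adjusted p = 0.027), Snai1 (-0.77, standard error 0.053, adjusted p = 0.015) and Vim (-0.44, standard error 0.054, adjusted p = 0.031) lower over both lines, beside 6.94% of all tested genes, and no member higher, beside 3.91%. By line, that fit called Ocln, Vim, Zeb2 and Snai1 lower in KD4 (12.2% of all genes) and Epcam higher (8.37%). In KD9 it called Cdh1 and Ocln lower (3.11%) and no member higher (1.99%). Its error comes from the columns within a line, drawn in the same way towards other genes. It holds no spread between control cultures or between clones.

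In order of TPM, Vim came first, Cdh1 and Epcam next and Ocln last in every sample. Cdh1 was above Epcam in the control and below it in KD4 and KD9, with no overlap of their columns. In KD9 the gap was small, with Cdh1 at 111 and 109 and Epcam at 115 in both columns. Twist1 followed Cdh1 and Epcam in each sample. In KD4 the neighbours Cdh2 and Snai2 did not differ beyond their columns, and Zeb1 and Zeb2 in the control had nearly the same level.

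Levels of genes in 1 library can be set side by side, since TPM is per length. The ratio of Cdh1 to Cdh2 was 6.66 in the control, 8.07 and 8.18 in KD4 and 5.90 and 5.45 in KD9. KD4 was above the control and KD9 below it, without overlap. The ratio of Cdh1 to Vim was 0.238 in the control, 0.387 and 0.369 in KD4 and 0.182 and 0.183 in KD9, in the same order. The ratio of Epcam to Vim, a pair chosen after its values were seen, was 0.198 in the control, 0.405 and 0.449 in KD4 and 0.189 and 0.193 in KD9, where it was close to the control. The log2 ratio over both lines was 2.76 ± 0.37 (SD, n = 2) for Cdh1 to Cdh2 against 2.73 in the control (exact permutation test, two-sided p = 1), and -1.93 ± 0.74 (SD, n = 2) for Cdh1 to Vim against -2.07 (exact permutation test, two-sided p = 1). With 3 samples this test cannot go below 0.33.

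**Figure D3:**
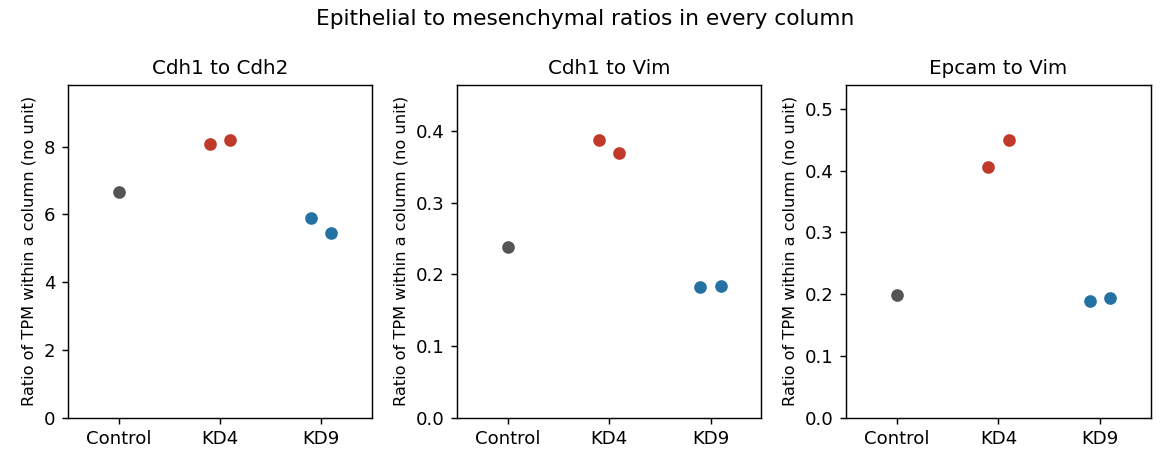
Ratio of TPM of Cdh1 to Cdh2, Cdh1 to Vim and Epcam to Vim within each column, on linear axes from 0, with 1 point per column. KD4 lies above the control in all 3 panels, and KD9 lies below the control for Cdh1 to Cdh2 (5.90 and 5.45 against 6.66) and Cdh1 to Vim.

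On mm10, the build of the authors' alignment, GENCODE M21 places Cdh1 on chromosome 8 from 106603351 to 106670246, Epcam on chromosome 17 from 87635979 to 87651129, Ocln on chromosome 13 from 100496507 to 100552718, Vim on chromosome 2 from 13573927 to 13582826 and Snai1 on chromosome 2 from 167538195 to 167542814. Zeb2 lies on chromosome 2 from 44983632 to 45117395, Snai2 on chromosome 16 from 14705852 to 14709385 and Twist1 on chromosome 12 from 33957671 to 33959829. All 10 are protein coding. Zeb2 shares 653 exonic bases with the antisense gene Zeb2os and Zeb1 shares 198 with Gm10125 on the other strand. These are 3.27% of the exonic bases of Zeb2 and 1.93% of those of Zeb1. The paper states default settings for featureCounts, which count without strand. Reads from the shared bases thus cannot be told apart by strand, and the annotation that the authors used is not given. The other 8 genes share no exonic base with another gene.

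Other genes of the junctions were read from lists chosen with earlier results of these data known, and their counts in both lines stand beside the shares of 38.2% lower and 28.8% higher over all tested genes. Among 9 adherens junction genes, 4 were lower and 2 higher in both lines, with medians of -0.01 in KD4 and -0.23 in KD9. Vcl, which encodes the actin linker vinculin, was at 81.8 in the control, 35.3 and 33.7 in KD4 and 49.6 and 48.9 in KD9. Nectin2, an adhesion gene of the nectin family, had log2 fold changes of -0.60 and -0.47, and the plakoglobin gene Jup had 0.55 and 0.19. Ctnnd1, which encodes the p120 catenin that binds cadherins, had -0.22 and -0.23. Of 7 desmosome genes, 3 were lower and 2 higher in both lines and none was past 2-fold in either, with medians of -0.15 and -0.11.

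Among 16 tight junction genes, 8 were lower and 2 higher in both lines, with medians of 0.05 in KD4 and -0.30 in KD9. Marveld2, which encodes tricellulin, a relative of occludin at 3-cell contacts, was at 4.78 in the control, 2.55 and 2.85 in KD4 and 2.31 and 2.56 in KD9. The log2 fold changes were -0.80 and -0.95, beside -0.96 and -1.34 for Ocln. Cldn3, a claudin of the sealing strands, had -0.68 and -0.86. Cldn4, a claudin gene as well, was at 69.2 in the control, 167 and 172 in KD4 and 104 and 114 in KD9, and Tjp3, a scaffold gene of the junction, had log2 fold changes of 1.21 and 0.75. The list thus held genes on both sides of 0.

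Of 16 genes of epithelial keratins and regulators, 8 were higher and 5 lower in both lines, with medians of 0.32 in KD4 and 0.05 in KD9. St14, which encodes the membrane protease matriptase, was at 11.3 in the control, 23.3 and 25.6 in KD4 and 24.5 and 23.9 in KD9. Its log2 fold changes of 1.10 and 1.09 were alike in the lines (standard error 0.25 over both, limma, adjusted p = 0.732). The epithelial transcription factor genes Grhl2 (1.38 and 0.61) and Grhl3 (1.33 and 0.63) had higher values in both, and the keratin gene Krt8 had -0.65 and -0.93. No gene of these lists passed limma over all genes.

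On the mesenchymal side, Cdh11, the cadherin of fibroblasts and bone, was at 126 in the control, 40.4 and 40.9 in KD4 and 82.3 and 83.2 in KD9. Of the 4 other cadherins above the filter 3 were lower in both lines. Of 17 mesenchymal regulators 7 were lower and 4 higher in both lines, with medians of -0.49 in KD4 and 0.12 in KD9, and 6 were more than 2-fold lower in KD4, where 9.5% of all tested genes were. In KD9 1 was more than 2-fold lower (Tgfb2) and 1 more than 2-fold higher (Foxc1), beside 5.45% and 4.21%. Twist2, the paralog of Twist1, was at 56.2 in the control, 6.88 and 7.42 in KD4 and 33.9 and 32.9 in KD9, a log2 fold change of -2.96 in KD4 where Twist1 had -0.11. Tgfb2 and Tgfb3, which encode ligands that can induce the mesenchymal switch, had -2.05 and -1.91 in KD4 and -1.005 and -0.64 in KD9.

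Of 15 genes of mesenchymal matrix and adhesion, 12 were lower and 1 higher in both lines, beside 38.2% and 28.8% of all tested genes, with medians of -0.96 in KD4 and -0.23 in KD9. The matrix genes Tnc and Sparc had log2 fold changes of -2.52 and -2.44 in KD4 and -0.98 and -0.81 in KD9, and Loxl2, a collagen cross-linking enzyme gene, had -2.93 and -1.08. The 22 fibroblast markers had medians of -2.02 and -0.31, with 21 more than 2-fold lower in KD4 and none in KD9, where 2 (Lum and Dcn) were more than 2-fold higher. Of the 22, 16 were lower in both lines. Postn was at 110.1 in the control, 7.42 and 6.74 in KD4 and 73.2 and 71.6 in KD9. The 14 ESC markers had medians of 0.61 and 0.01. By the mean of each line, 13 of the 14 were above the control in KD4 and 7 in KD9. Single markers went both ways in KD9, with -1.26 for Lin28a and 0.81 for Zfp42. The 7 primitive endoderm markers had -1.31 and -1.24, with Sox7 at 6.18 in the control, 2.00 and 1.88 in KD4 and 1.62 and 1.66 in KD9, and Pdgfra counted on this list and among the fibroblast markers. The 4 trophectoderm markers above the filter had -0.18 and 0.08, with 2 lower and 2 higher in both lines. The largest change among them was that of Tfap2c, at 18.4 in the control, 38.7 and 38.3 in KD4 and 29.7 and 31.4 in KD9. Elf5, a defining marker under the filter, was at 0 in 4 of the 5 columns. The part of these cell types in the values of the 10 genes was not tested.

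**Figure D4:**
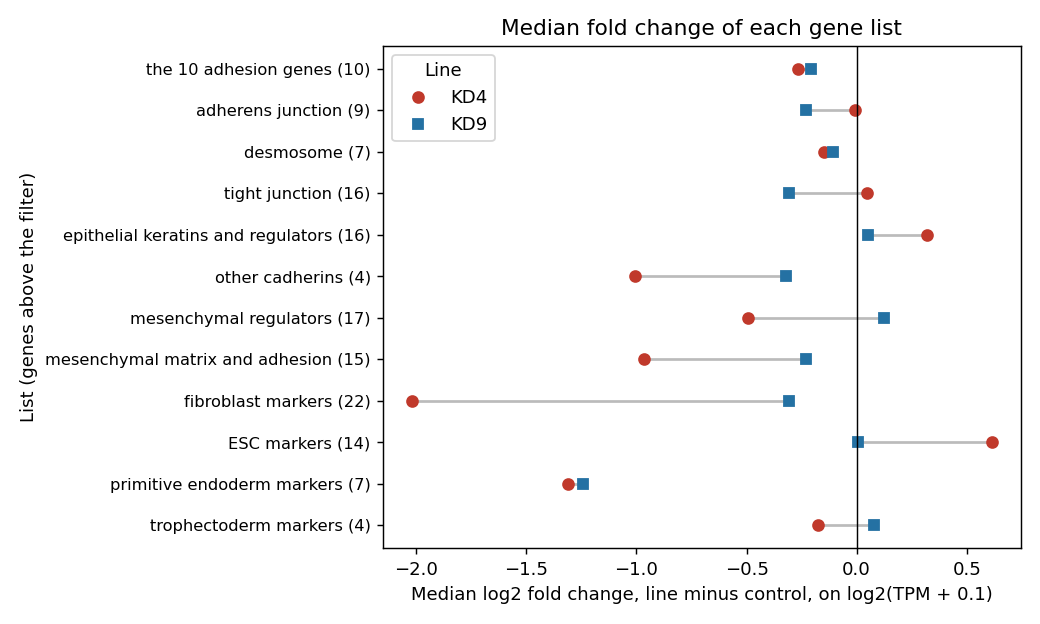
Median log2 fold change on the scale of log2(TPM + 0.1) of each list, with a circle for KD4 and a square for KD9 minus the control and the number of genes above the filter in brackets. The 10 adhesion genes lie at -0.27 and -0.21, while the fibroblast markers lie at -2.02 in KD4 and -0.31 in KD9.

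The genes with the pattern most like Cdh1 over the 5 columns were Sema4d, Ubr3 and Ttll4 among 12948 genes whose mean TPM reached 5. Their root mean square difference from Cdh1 was 0.014, 0.028 and 0.029 on the log2 scale, after centring each gene over the columns. Sema4d was at 7.83 in the control, 7.96 and 7.52 in KD4 and 5.50 and 5.36 in KD9. Epcam, the nearest of the 10 genes by this measure, was at 0.18 and stood 2390th in that order. For Vim the nearest genes were Carhsp1, Elf4 and Tmbim4, at 0.017, 0.019 and 0.022, and Zeb2 was the nearest of the 10 at 0.11, as the 340th. These likenesses rest on 3 samples that share 1 control.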

How the data were processed

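RNA-seq values of 1 control sample and the knockdown lines KD4 and KD9 were analysed, with 1 labelled sample each. Per the labels and the paper's methods, the authors used Trim Galore for trimming, HISAT2 for alignment to mm10 and featureCounts for unique reads, and deposited TPM. Versions and annotation are not given in the sources used here. Each column sums to 1000000, so the depth is unknown and no counting interval is given. The 2 columns of a line were averaged. 1 further per-sample column was left out, which is named as a second control while the labels give 1 control sample, matched by the other, and 24 row names are dates.

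The scale was log2(TPM + 0.1), on which changes of low genes come out too small, for the 19950 genes whose mean TPM reached 0.5. Knockdown was tested with limma 3.58.1 in R 4.3.3 (lmFit, eBayes with trend, two-sided, Benjamini-Hochberg over all genes, threshold 0.05, with 1 residual degree of freedom and 3.01 prior ones). Nothing in the labels says that the lines stand for separate cultures beyond being clones. The p-values thus rest on the spread between these samples, drawn by eBayes towards that of genes of like level. For KD4 and KD9 singly a fold over 2 was used with no test, except in the added fit with each column as its own library and a term for each line.

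The genes and the 11 lists beside them were chosen with earlier results of these data known. Named genes are all 10, up to 4 of each list with the largest mean change, and the 3 genes most like Cdh1 and Vim. Col1a1, Elf5, Foxc1, Pdgfra, Lum, Dcn, Lox and Mmp2 are named outside this rule, chosen after their values were seen. The alternatives were a rescaling by median ratios, other filters and pseudocounts, single columns, other folds, limma without trend and each column as its own library. Promoter windows come from RefSeq (GRCm38.p6), matched by symbol for 6 of the 10 genes, and coordinates from GENCODE M21. Python 3.11.15 was used.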

Additional observations from a re-analysis of the deposited data

Results flagged for a closer look

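Epcam and Zeb1 had their columns of KD4 and of KD9 on opposite sides of the control. For Epcam KD4 was above and KD9 below the control, with a log2 difference of 0.59 (KD4 minus KD9). For Zeb1 the order was the reverse, with a difference of -0.49. These differences between the lines were not tested.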

How the results depend on the processing

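No member passed limma under other pseudocounts, filters, scalings, single columns or each column as its own library, with a lowest adjusted p of 0.32 for Ocln in that last setting. With a term for each line added to that fit, chosen after results were known, 3 members passed. The count of members over 2-fold, 1 in each line, was 2 in KD4 with the second column of each line alone, where Zeb2 was at -1.02. Over 1.5-fold the counts were 4 in KD4, all lower, and 2 in KD9, 1 in each direction, and over 3-fold 0 and 0. A minimum mean TPM of 5 gave 0 in KD9, since it removes Ocln, whose mean TPM was 4.30. When a line was left out, the difference in log2 ratio ranged from -0.23 to 0.29 for Cdh1 to Cdh2 and from -0.38 to 0.67 for Cdh1 to Vim. The change over both lines went from -0.21 to 0.39 for Epcam, -0.19 to 0.30 for Zeb1, -0.11 to 0.44 for Snai2 and -0.11 to 0.72 for Twist1 when 1 line was left out, Epcam reversing without KD4 and the others without KD9. With the second column alone, Snai2 and Twist1 in KD4 were at 0.0048 and 0.014. No other of the 257 alternative values of single members changed sign. Limma was not run on 1 line alone, which leaves no residual degrees of freedom. The depth is unknown, which limits low genes such as Ocln. No paired analysis was possible because the labels give no numbers that pair the lines with the control.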
